A study of Mus musculus with 6 samples.

Results

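Klf1, Gata1, Tal1, Nfe2, Epor, Alas2, Slc4a1, Bcl11a and Sox6 are regulators of red cell formation and products of red cells that are not globins. They were taken by symbol from the table of raw counts, and each of these 9 genes had 1 of the 45792 rows. Whole hearts of 6 mouse embryos at embryonic day 13.5 were sequenced, 1 heart per library. The 3 control hearts are labelled wild-type and the 3 mutant hearts Tie2Cre INO80 flox/flox, a genotype in which a Cre recombinase under the Tie2 (Tek) promoter removes a loxP-flanked exon of Ino80, a chromatin remodelling ATPase. The paper, however, counts every genotype other than Tie2Cre;Ino80 fl/fl as control. It describes crossing Cre-carrying Ino80 flox/+ males with Ino80 fl/fl females, so a heart labelled wild-type may carry floxed alleles or Cre. The labels give the strain of both groups as C57BL/6, while the study's methods describe its transgenic mice as being on mixed backgrounds. The genotype is endothelial by design, and Tie2-driven Cre is also known to act in the blood lineage, so blood cells within a mutant heart may carry the deletion as well. No blood-free control heart and no sorted blood cells were measured.

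Red cells of a mid-gestation mouse embryo come in 2 waves. Primitive red cells arise in the yolk sac and carry the embryonic globins, encoded by Hbb-y and Hbb-bh1 in the beta locus and Hba-x in the alpha locus. Definitive red cells arise in the fetal liver and carry the adult globins, encoded by Hbb-bs, Hbb-bt, Hba-a1 and Hba-a2. The adult genes, above all the alpha ones, are not confined to definitive cells, so their counts do not measure that wave alone. GATA1, TAL1, KLF1 and NF-E2 are the transcription factors that switch on globin, haem and membrane genes in both waves, EPOR receives the survival signal erythropoietin, and BCL11A and SOX6 are repressors of the embryonic beta-like gene in definitive cells. A dissected heart holds blood in its chambers and vessels, so its RNA includes that of circulating red cells. In such bulk RNA, fewer red cells and less RNA per red cell cannot be told apart.

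The sequences just upstream of 6 genes are shown for 2 sets of genes, grouped here by the order of the 6 hearts: Alas2 with the adult globins Hba-a2 and Hbb-bt, and Tal1 and Epor with the embryonic globin Hbb-y. The grouping was drawn from the values described below and was not tested. They were read 5′ to 3′ on the gene's strand from the RefSeq promoter table (GRCm38.p6), up to the first annotated start. Windows were held for 7 of the 9 genes and for 6 of the 7 globin genes, and none was held for Nfe2, Slc4a1 or Hbb-bh1. Capitals mark a GATA motif (GATA with A or T before it and A or G after it, on either strand) or a KLF1 motif (CCNCNCCC, on either strand, with overlapping matches run together).
Alas2, chrX:150547167-150547374, + strand: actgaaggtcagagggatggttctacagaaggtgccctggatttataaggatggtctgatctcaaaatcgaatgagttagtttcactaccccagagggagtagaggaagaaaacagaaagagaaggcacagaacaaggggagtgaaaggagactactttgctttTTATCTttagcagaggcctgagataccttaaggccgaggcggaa
Hba-a2, chr11:32296242-32296488, + strand: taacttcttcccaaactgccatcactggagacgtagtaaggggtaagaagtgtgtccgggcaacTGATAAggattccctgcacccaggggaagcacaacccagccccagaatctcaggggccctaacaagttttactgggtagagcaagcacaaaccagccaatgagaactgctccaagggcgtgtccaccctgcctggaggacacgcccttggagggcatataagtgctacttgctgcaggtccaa
Hbb-bt, chr7:103813997-103814173, - strand: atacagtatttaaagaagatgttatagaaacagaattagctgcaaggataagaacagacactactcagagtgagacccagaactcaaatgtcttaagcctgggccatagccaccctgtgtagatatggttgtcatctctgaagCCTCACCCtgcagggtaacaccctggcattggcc
Hbb-y, chr7:103853217-103853457, - strand: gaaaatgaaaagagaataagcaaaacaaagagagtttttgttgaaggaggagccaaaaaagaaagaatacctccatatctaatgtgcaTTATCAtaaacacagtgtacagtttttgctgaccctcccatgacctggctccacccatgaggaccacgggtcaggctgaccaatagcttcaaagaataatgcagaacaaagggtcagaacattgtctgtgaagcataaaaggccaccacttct
Tal1, chr4:115056176-115056425, + strand: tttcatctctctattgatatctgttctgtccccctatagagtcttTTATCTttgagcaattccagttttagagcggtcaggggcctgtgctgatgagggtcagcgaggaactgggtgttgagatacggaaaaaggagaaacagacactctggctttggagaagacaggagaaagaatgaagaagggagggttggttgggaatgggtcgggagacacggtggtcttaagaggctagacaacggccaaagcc
Epor, chr9:21963577-21963826, - strand: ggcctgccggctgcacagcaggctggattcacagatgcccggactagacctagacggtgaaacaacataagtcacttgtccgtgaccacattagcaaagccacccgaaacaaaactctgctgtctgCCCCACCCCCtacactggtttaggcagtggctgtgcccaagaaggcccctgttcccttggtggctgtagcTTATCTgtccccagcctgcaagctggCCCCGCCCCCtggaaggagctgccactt
Of these stretches, those of Alas2, Hba-a2, Hbb-y, Tal1 and Epor held a GATA motif, and those of Epor and Hbb-bt held KLF1 motifs. Over all 32851 promoter windows in the table, each running from 250 bases before to 50 bases after a start, 29.8% held a GATA motif and 49.5% a KLF1 motif. The NF-E2 motif was held by 0.423% of windows, and an E-box (CANNTG) with GATAA 6 to 12 bases further on by 1.17%. The stretches are shorter than these windows. In its whole window Alas2 also held 4 KLF1 matches, and Hbb-bt, Hbb-y, Hba-a2 and Epor no motif beyond those shown. A further window of Tal1, at a second start, held 4 KLF1 matches. A match is a description of the letters only.

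The libraries held 28948836 to 89675692 counts, and mutant replicate 1 was the deepest, with 3.10 times the counts of mutant replicate 3. Values are given as CPM, a gene's counts over the library's effective size, scaled to a common total and corrected with edgeR's TMM factors. Ino80 itself did not separate the groups: it measured 30.2, 31.6 and 32.7 CPM in control replicates 1, 2 and 3 and 36.4, 33.7 and 31.8 CPM in the mutant hearts. These counts cover the whole gene in all cells of the heart, while the deletion takes 1 exon in targeted cells. They are therefore no firm check of the labels. In endothelial cells isolated from mutant hearts, the paper reports Ino80 mRNA as undetectable by quantitative PCR. Control replicate 1 stood apart from the other controls in its globins, as given below. Genes of the Y chromosome (Ddx3y, Eif2s3y, Kdm5d and Uty) summed to 198 to 240 CPM in control replicates 1 and 2 and mutant replicate 3 and to at most 0.0308 CPM in the other hearts, so the sexes were mixed in both groups. Gata1 and Alas2 lie on the X chromosome, and the log2 fold change of Alas2 with the Y genes as a covariate was -1.55, while that of Gata1 was -0.070, against -1.54 and -0.32 without it.

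Levels between genes were compared as CPM per kilobase of exon. Alas2 was the highest of the 9 in both groups, at 30.4 ± 21.1 (SD, n = 3) in control and 10.5 ± 3.55 in mutant hearts. In control hearts Slc4a1 followed at 4.29 ± 2.04, then Tal1 at 2.99 ± 0.587, Bcl11a at 2.005 ± 0.218 and Sox6 at 1.29 ± 0.107. The heart-to-heart ranges of Slc4a1 and Tal1 overlapped, whereas Tal1, Bcl11a and Sox6 each lay wholly above the next in this order. Epor (0.618 ± 0.201), Nfe2 (0.428 ± 0.124), Klf1 (0.240 ± 0.0502) and Gata1 (0.156 ± 0.00519) closed the order, with only the ranges of Epor and Nfe2 overlapping among these neighbours. In mutant hearts Tal1, at 3.79 ± 0.0379, and Slc4a1, at 3.19 ± 0.600, changed places, and their ranges again overlapped. Gata1 and Klf1, the lineage's own transcription factors, were thus the scarcest of the 9 and a haem enzyme the most abundant. For scale, the adult globin Hbb-bs measured 8665 CPM per kilobase in control hearts.

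Of 17125 genes tested with edgeR's quasi-likelihood test, none passed an adjusted p of 0.05 in either direction (0.0% higher and 0.0% lower in mutant hearts); the lowest value was 0.0533. A raw p below 0.05, unadjusted for the number of genes, was reached by 9.48% of all genes in the higher and 9.98% in the lower direction in mutant hearts. Among the 9 genes, 2 were higher (Tal1 and Epor) and 1 lower (Alas2) at that level, and their median log2 fold change was -0.32 against -0.0017 over all genes. That median was 0.017 without mutant replicate 2, -0.049 without control replicate 3 and -0.51 without mutant replicate 3. DESeq2 called 2.67% of 16614 genes higher and 3.43% lower, and none of the 9 genes in either direction, with no adjusted p for Klf1. Without control replicate 1 edgeR called 1.85% of genes higher and 2.49% lower, and of the 9 genes Alas2 alone.

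**Figure D1:**
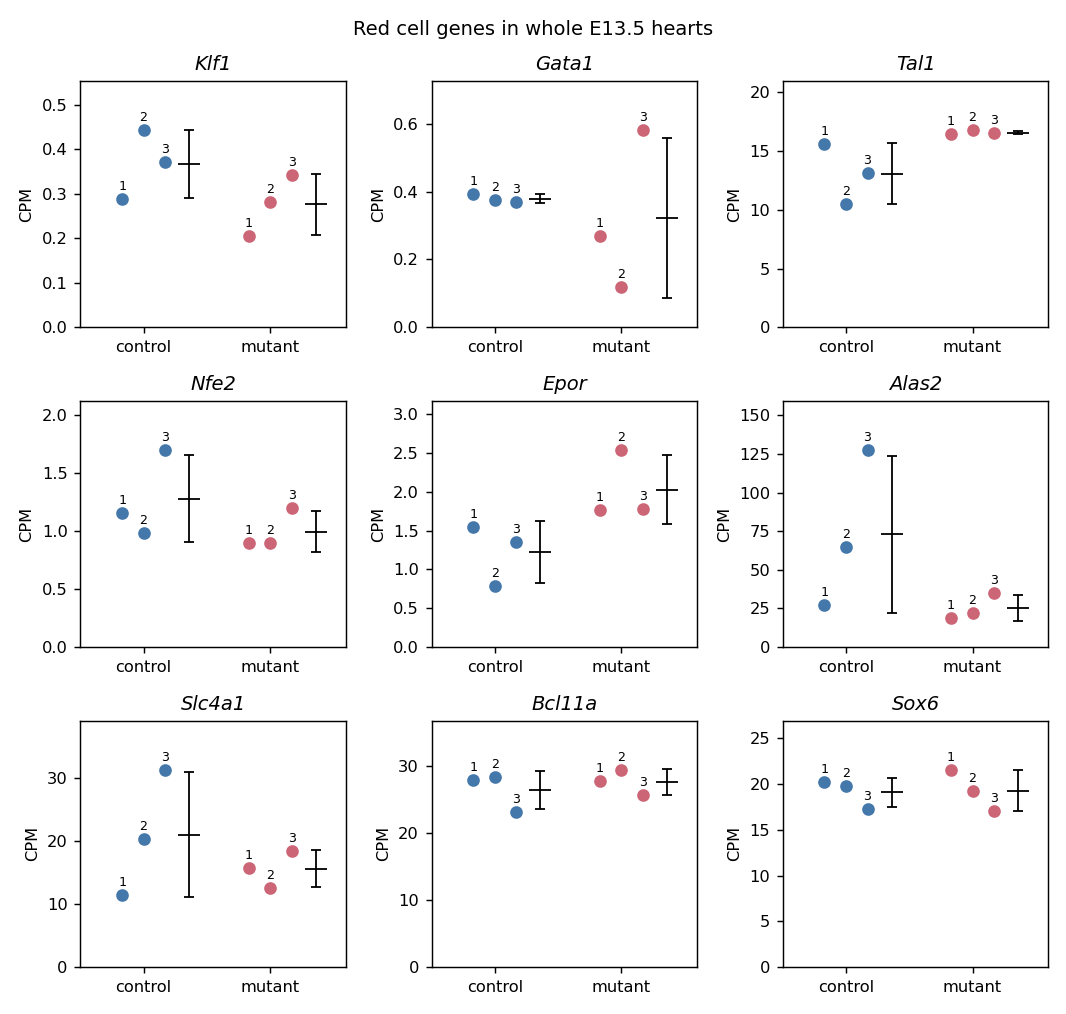
Level of each of the 9 genes in CPM (vertical axis, from 0) in each heart, with control hearts in blue and mutant hearts in red, numbered by replicate; the black mark and bar beside each group are the mean and SD of 3 hearts. Only Tal1 and Epor have all mutant hearts above all control hearts, and the widest spread is that of Alas2, from 18.9 to 127 CPM.

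Gata1 (ENSMUSG00000031162.12, chrX:7959260-7978071, - strand) encodes the zinc finger factor on which red cell and megakaryocyte formation depends. It was close to the limit of counting, with 5 to 25 counts per heart. Its levels were 0.394, 0.374 and 0.370 CPM in the control hearts and 0.270, 0.117 and 0.581 CPM in the mutant hearts. The mutant hearts lay on both sides of the controls, with a log2 fold change of -0.32 (SE 0.53, adjusted p = 0.76), which turned to 0.068 without mutant replicate 2.

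Klf1 (ENSMUSG00000054191.7, chr8:84901928-84905291, + strand) encodes a factor that binds CACC boxes, among them those of the adult beta-globin promoter, and also drives Bcl11a. It had 10 to 19 counts per heart, or 0.289, 0.442 and 0.370 CPM in control and 0.205, 0.282 and 0.342 CPM in mutant hearts. The groups overlapped, and the log2 fold change was -0.45 (SE 0.38, adjusted p = 0.52). Its 95% interval ran from -1.32 to 0.41, and without mutant replicate 1 the value was -0.23.

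Nfe2 (ENSMUSG00000058794.10, chr15:103248212-103258403, - strand) encodes the larger subunit of NF-E2, which acts at the globin locus control regions and in platelet formation. It measured 1.16, 0.987 and 1.70 CPM in control and 0.897, 0.893 and 1.196 CPM in mutant hearts. Control replicate 3 was highest and the groups overlapped (log2 fold change -0.38, SE 0.29, adjusted p = 0.48). Without control replicate 3 the log2 fold change was -0.12.

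Tal1 (ENSMUSG00000028717.10, chr4:115056426-115071755, + strand) encodes a basic helix-loop-helix factor of blood stem cells, red cells and endothelium. It measured 15.6, 10.5 and 13.1 CPM in control hearts and 16.5, 16.8 and 16.5 CPM in mutant hearts. All mutant hearts lay above all control hearts, as did 14.3% of all genes tested. The log2 fold change was 0.34 (SE 0.14, unadjusted p = 0.042, adjusted p = 0.24). The nearest control was replicate 1, and without it the log2 fold change was 0.49 with an adjusted p of 0.073, whereas without control replicate 2 it was 0.21 with an adjusted p of 0.41.

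Epor (ENSMUSG00000006235.5, chr9:21958897-21963506, - strand) encodes the erythropoietin receptor. Its levels were 1.55, 0.783 and 1.36 CPM in control hearts and 1.76, 2.54 and 1.78 CPM in mutant hearts. Here too every mutant heart lay above every control heart, and control replicate 1 was the nearest control. The log2 fold change was 0.71, or 1.63-fold (SE 0.30, unadjusted p = 0.048, adjusted p = 0.25). No alternative tried gave an adjusted p for Epor or Tal1 under 0.05; the lowest were 0.17 and 0.073. Without control replicate 2 the log2 fold change of Epor was 0.48.

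Alas2 (ENSMUSG00000025270.11, chrX:150547375-150570638, + strand) encodes the erythroid 5-aminolevulinate synthase, the first and rate-setting enzyme of haem synthesis in red cells. It measured 27.1, 64.5 and 127 CPM in control hearts and 18.9, 21.9 and 34.9 CPM in mutant hearts. The groups overlapped through control replicate 1, which lay below mutant replicate 3. The log2 fold change was -1.54, a level 2.91 times higher in control hearts (SE 0.49, unadjusted p = 0.014, adjusted p = 0.16). Without control replicate 1 it was -1.94 with an adjusted p of 0.026, and without control replicate 3 it was -0.87 with an adjusted p of 0.31. An exon of Alas2 overlaps that of Apex2 on the opposite strand, and the strand setting of the counting is not given in the sources used here. Apex2 measured 8.64 to 10.1 CPM in control and 9.26 to 11.3 CPM in mutant hearts.

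Slc4a1 (ENSMUSG00000006574.13, chr11:102348824-102366203, - strand) encodes band 3, the anion exchanger of the red cell membrane. It measured 11.4, 20.3 and 31.3 CPM in control hearts and 15.7, 12.6 and 18.5 CPM in mutant hearts. Control replicate 1 was the lowest heart of all and the groups overlapped (log2 fold change -0.43, SE 0.32, adjusted p = 0.47). Leaving out 1 heart at a time moved the log2 fold change between -0.73, without control replicate 1, and -0.021, without control replicate 3.

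Bcl11a (ENSMUSG00000000861.13, chr11:24078056-24174123, + strand) encodes the zinc finger repressor of embryonic and fetal beta-like globins and is also known from neurons and lymphocytes. It measured 27.8, 28.3 and 23.1 CPM in control hearts and 27.8, 29.4 and 25.6 CPM in mutant hearts. The groups overlapped, and the 95% interval of the log2 fold change ran from -0.17 to 0.30 around 0.064 (adjusted p = 0.75). The transcript 4930538E20Rik overlaps one of its exons on the opposite strand.

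Sox6 (ENSMUSG00000051910.11, chr7:115470872-116038796, - strand) encodes an SRY-box factor that represses Hbb-y together with BCL11A, and is also known from muscle and cartilage. It measured 20.3, 19.8 and 17.3 CPM in control hearts and 21.6, 19.2 and 17.1 CPM in mutant hearts. The interval of its log2 fold change ran from -0.24 to 0.27 around 0.016 (adjusted p = 0.95). Bcl11a and Sox6 varied least of the 9 genes over the 6 hearts, 1.27-fold and 1.26-fold from the lowest to the highest heart, against 6.76-fold for Alas2.

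**Figure D2:**
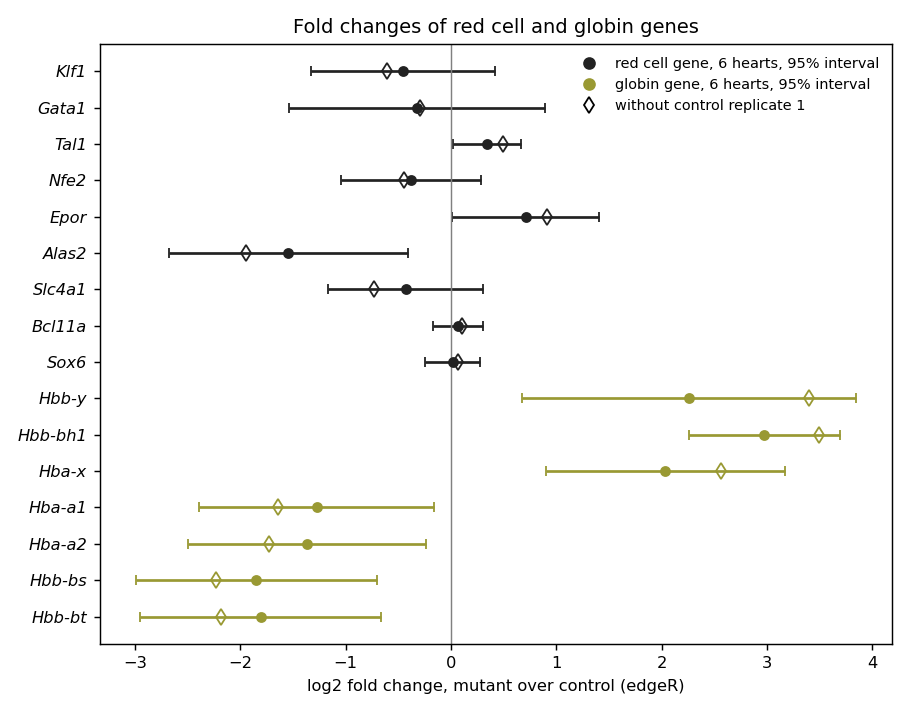
The log2 fold change of mutant over control hearts (horizontal axis) for the 9 red cell genes (black) and 7 globin genes (olive), with filled points and 95% intervals from the fit of 6 hearts and open diamonds from the fit without control replicate 1. Bcl11a and Sox6 lie at 0.064 and 0.016, Alas2 at -1.54 beside the adult globins, and the embryonic globins at 2.03 to 2.98.

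The embryonic and adult globin genes differed between the groups in opposite directions. Hbb-y measured 454, 42.6 and 155 CPM in control hearts and 802, 1200.1 and 1126 CPM in mutant hearts. Hbb-bh1 measured 3.05, 1.05 and 1.67 CPM in control hearts and 14.0, 15.7 and 16.5 CPM in mutant hearts. Hba-x measured 39.1, 6.97 and 26.6 CPM against 76.6, 105 and 118 CPM. For all 3 embryonic genes all mutant hearts lay above all controls, as for 14.3% of all genes tested. Their log2 fold changes were 2.26, 2.98 and 2.03, with edgeR adjusted p of 0.15, 0.065 and 0.11. DESeq2 called Hbb-bh1 (adjusted p = 6.4e-23) and Hba-x (adjusted p = 0.045) higher, as it did 2.67% of all genes. The 4 adult genes were lower, with log2 fold changes of -1.27 for Hba-a1, -1.37 for Hba-a2, -1.85 for Hbb-bs and -1.80 for Hbb-bt and adjusted p of 0.13 to 0.21. Without control replicate 3 these 4 values were -0.54, -0.58, -1.12 and -1.06. Without control replicate 1 the adjusted p were 0.021 for Hbb-bs, 0.024 for Hbb-bt and 0.0012 to 0.038 for the embryonic genes, with log2 fold changes of 2.56 to 3.49 for the latter. Of the adult genes only Hbb-bs had all mutant hearts below all controls, as had 12.8% of all genes. Hba-a1 and Hba-a2, and likewise Hbb-bs and Hbb-bt, are near-identical copies between which reads can be split, so their sums are firmer than the single values.

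The ratio of embryonic to adult globin counts was taken within each heart, so that it did not depend on library scaling. Embryonic genes made up 5.36%, 0.297% and 0.468% of globin counts in the control hearts, and 13.9%, 17.5% and 11.1% in the mutant hearts. The Wilson 95% intervals of these shares, which cover counting error only, were at most 0.263 percentage points wide. The mean log2 ratio was -6.76 ± 2.29 in control and -2.62 ± 0.39 in mutant hearts, a difference of 4.13 or 17.5-fold (p = 0.1 by an exact permutation test, two-sided, which cannot go lower with 3 against 3 hearts). In the beta locus the difference was 4.44 and in the alpha locus 3.46, each without overlap. The controls did not form a tight group: in control replicate 1 the log2 ratio was -4.14, between -8.39 and -7.73 in the other controls and -3.01 to -2.24 in the mutant hearts.

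**Figure D3:**
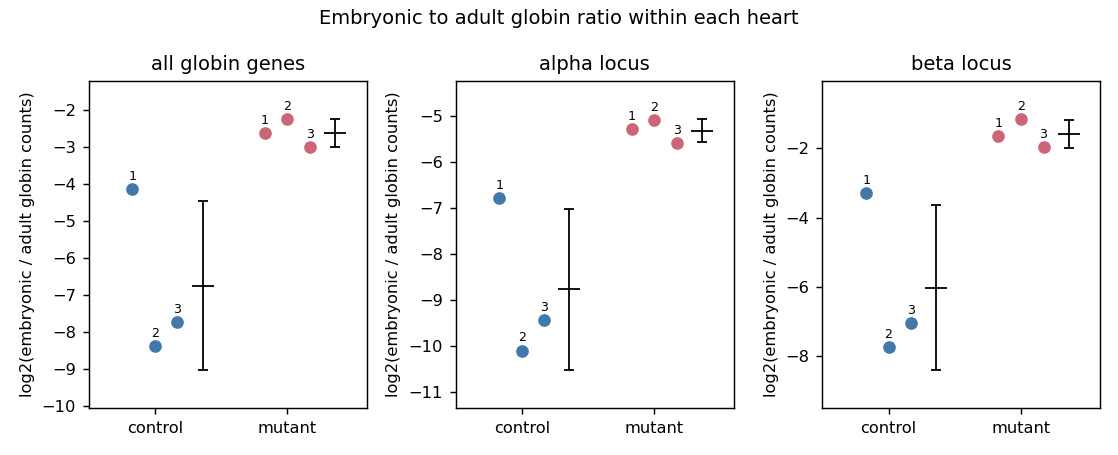
The log2 ratio of embryonic to adult globin counts (vertical axes) within each heart, over all globin genes and for the alpha and beta loci alone, with replicate numbers and the mean and SD of 3 hearts per group. The mutant hearts lie at -3.01 to -2.24 over all globin genes, above control replicate 1 at -4.14 and the other controls at -8.39 and -7.73.

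Because the hearts fell apart by group in this ratio, no correlation of a gene with it was computed over the 6 hearts, and the genes are described by the order of the hearts. From the highest to the lowest level, Tal1 and Epor had the order mutant 2, mutant 3, mutant 1, control 1, control 3, control 2. That order is also the order of Hbb-y. Hbb-bh1 and Hba-x had the mutant hearts in the order 3, 2, 1, and the ratio itself in the order 2, 1, 3. The control hearts had the same order in all of these. The mutant hearts differed too little in Tal1 (16.5 to 16.8 CPM) for their order to be told from counting noise. The same held for mutant replicates 1 and 3 in Epor (1.76 and 1.78 CPM). Alas2 had the order control 3, control 2, mutant 3, control 1, mutant 2, mutant 1, which is also that of Hba-a1, Hba-a2 and Hbb-bt. Slc4a1 shared the 3 highest hearts with Alas2, and its other hearts ran mutant 1, mutant 2, control 1. Bcl11a and Sox6 followed neither order: their highest hearts were mutant 2 and mutant 1, and their lowest control 3 and mutant 3. No test was made of these orders, which rest on 6 hearts that share the group difference. The share of all genes with either order is not given, and 14.3% of all genes tested had all mutant hearts above all controls.

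Alas2 was next set against the adult globin counts of the same heart. Adult globins summed to 8759, 16981 and 39030 CPM in the control hearts and 5510, 6224 and 10138 CPM in the mutant hearts, a 7.08-fold span (log2 difference -1.35, exact permutation p = 0.2). Alas2 amounted to 3.09, 3.80 and 3.27 counts per 1000 adult globin counts in the control hearts and to 3.42, 3.52 and 3.44 in the mutant hearts. The mutant values all lay within the span of the controls, and the highest was 1.23 times the lowest. The difference in mean log2 ratio was 0.037 (exact permutation p = 0.7), and it was -0.025 without control replicate 1. The -1.54 given above for the level of Alas2 is an edgeR fold change and not a difference of mean log2 values. It is therefore not on the same scale as 0.037 and -1.35.

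Slc4a1 had no such even ratio. Since the adult globin sum differed by -1.35, a gene of equal level in both groups would by arithmetic come out higher per adult globin count in mutant hearts by that amount, and the ratios of Slc4a1 and the other genes are to be read against this value. Slc4a1 amounted to 1.30, 1.19 and 0.802 counts per 1000 adult globin counts in the control hearts and to 2.85, 2.03 and 1.82 in the mutant hearts. All mutant hearts lay above all controls (exact permutation p = 0.1, 0.26 adjusted over the 9 genes). The difference was 1.02 on the log2 scale, which is less than that of a gene of equal level. The share of all genes without overlap in this ratio was not computed. Set against all globin counts, embryonic ones included, the difference of Slc4a1 was 0.83, again without overlap, and that of Alas2 was -0.15. Klf1, at 0.00948 to 0.0330 counts per 1000 adult globin counts in control and 0.0337 to 0.0453 in mutant hearts, also did not overlap (exact permutation p = 0.1, 0.26 adjusted over the 9 genes), but on 10 to 19 counts a heart. Against all globin counts the difference of Klf1 was 0.74 with overlap, and against adult globin without control replicate 3 it was 0.39. The other 6 genes had differences per adult globin count of 0.83 to 2.11 on the log2 scale with overlap. Among them Bcl11a and Sox6, whose levels hardly differed between the groups, were at 1.42 and 1.36.

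**Figure D4:**
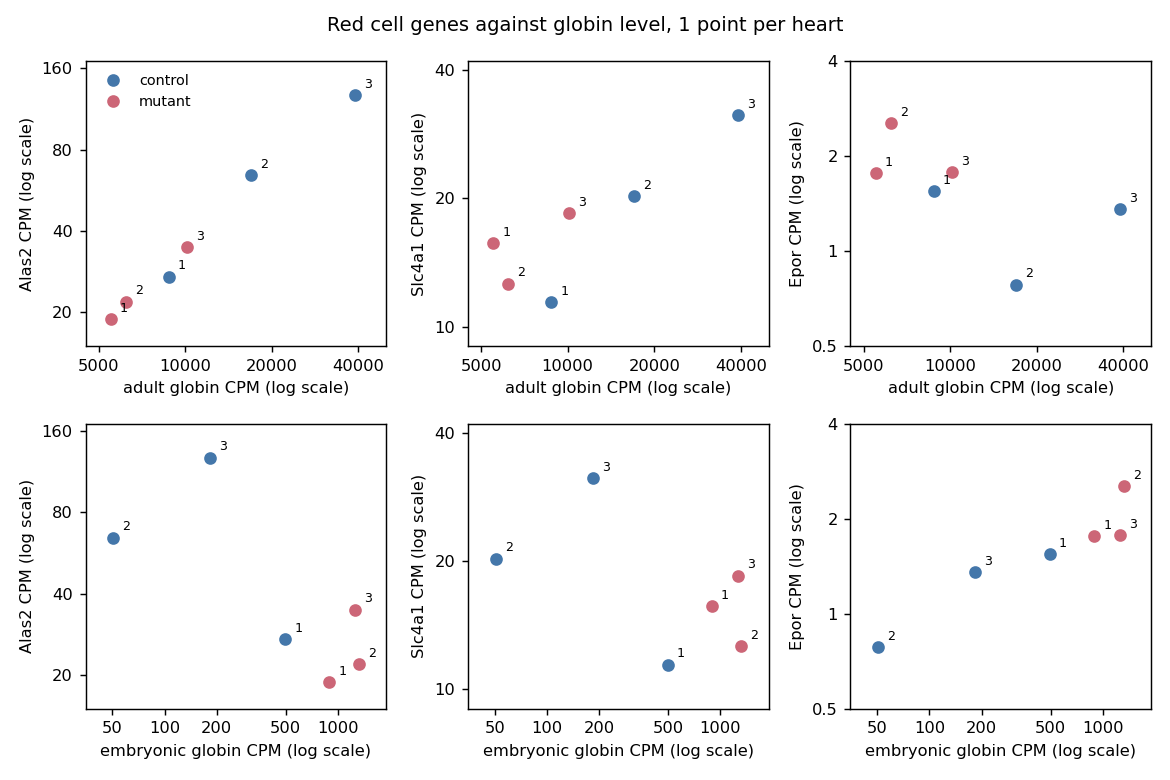
CPM of Alas2, Slc4a1 and Epor (vertical axes, log scale) against summed adult globin CPM (top row) and embryonic globin CPM (bottom row, log scale), 1 point per heart, control in blue and mutant in red, numbered by replicate. Alas2 keeps 3.09 to 3.80 counts per 1000 adult globin counts in all hearts, while Slc4a1 lies between 0.802 and 2.85.

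The genes most like Alas2 over the 6 hearts, by Pearson's r of log2(CPM + 1) among genes averaging at least 1 CPM, were Ace (r = 0.996), Gm1866, Hbb-bs, Hbb-bt and Hba-a1 (r = 0.991 to 0.992). Ace, which encodes angiotensin-converting enzyme, measured 2.34, 3.91 and 5.37 CPM in control and 1.78, 2.02 and 2.46 CPM in mutant hearts. The genes most like Bcl11a were Acsl5, Gcfc2, Tmem229b, Aldh1a2 and Tmx1 (r = 0.985 to 0.993), and those most like Sox6 were Dmtf1, Wdfy1, Tab2, Elmod2 and Cep95 (r = 0.968 to 0.990). None of these 10 genes is a globin. The points are 6 hearts that share depth and group, and the closest of all genes compared are close by selection.

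The wider pathways of the 9 genes were counted from lists. Among 17 tested partners and relatives of the erythroid factors (18 listed), 3 were higher and 0 lower by a raw edgeR p below 0.05, with a median log2 fold change of 0.13, or 0.035 without control replicate 2; over all genes the shares were 9.48% and 9.98%. These were Tcf3, the E-protein partner of TAL1 (119 ± 6.99 to 143 ± 16.4 CPM, log2 fold change 0.27), Ldb1, the scaffold of the GATA1-TAL1 complex (0.16), and the small MAF protein gene Mafg, whose product pairs with NF-E2 (0.22). Their adjusted p were 0.19 to 0.25. Lmo2, which bridges LDB1 and TAL1, measured 18.9 ± 1.42 and 20.9 ± 0.787 CPM with an adjusted p of 0.39, and Gfi1b was too low to test.

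Of 15 genes that act with BCL11A or otherwise in globin switching, 5 were higher and 0 lower at that level, against 9.48% and 9.98% of all genes, and the median was 0.12. The 2 that DESeq2 called were Igf2bp1, an RNA-binding protein of embryonic and fetal cells (61.9 ± 8.23 to 95.5 ± 15.7 CPM, log2 fold change 0.63, edgeR adjusted p = 0.091, DESeq2 adjusted p = 0.0015), and Lin28b, a let-7 inhibitor of the same stage (2.69 ± 0.694 to 4.63 ± 0.733 CPM, 0.79, edgeR adjusted p = 0.14, DESeq2 adjusted p = 0.036). Hmga2, a let-7 target, measured 28.3 ± 11.5 and 56.2 ± 9.15 CPM (0.99, edgeR adjusted p = 0.12). The methyltransferase genes Ehmt2 (0.23) and Dnmt1 (0.22) were the other two. The repressor gene Zbtb7a was at -0.062, and Chd4, the NuRD remodeller that works with BCL11A, at 0.15 with an adjusted p of 0.41. All of these genes are also expressed outside blood.

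Erythropoietin signalling had 12 tested genes of 13 and a median of -0.0029. By raw p 1 was higher and 1 lower, against 9.48% and 9.98% of all genes. Socs1, a feedback inhibitor of JAK kinases, had a log2 fold change of 0.54 (adjusted p = 0.18), and Cish, a STAT5 target of the same family, -0.37 (adjusted p = 0.25). Jak2, the kinase bound to EPOR, was at -0.098 and Stat5a at -0.012.

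Haem synthesis, whose first erythroid step is that of ALAS2, had 11 tested genes and a median of -0.063. By raw p 1 was higher and 3 lower, against 9.48% and 9.98% of all genes. Ppox, protoporphyrinogen oxidase, was at 0.42 (edgeR adjusted p = 0.12, DESeq2 adjusted p = 0.031). Fech, the ferrochelatase that inserts iron, was at -0.37, Cpox at -0.29 and Uros at -0.26, with edgeR adjusted p of 0.16 to 0.20. None of the 11 had a fold change near that of Alas2, and all but Alas2 are also used in other cells of the heart. In iron handling 0 of 11 were higher and 3 lower by raw p, against the same 9.48% and 9.98% of all genes. The 3 were Slc25a37, the mitochondrial iron importer (-0.48), Fth1, the ferritin heavy chain (-0.34), and Ncoa4, the ferritin receptor for autophagy (-0.19).

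Membrane and skeleton genes of the red cell, the group of Slc4a1, had 12 of 14 tested genes with a log2 fold change below 0, 4 lower and 0 higher by raw p (9.48% of all genes were higher and 9.98% lower), and a median of -0.19. Over all genes tested, 8616 of 17125 lay below 0. Leaving out control replicate 1 gave a median of -0.40, and leaving out control replicate 3 gave -0.025. Ank1, the ankyrin that ties band 3 to spectrin, fell in the DESeq2 fit (35.5 ± 2.99 to 25.8 ± 1.78 CPM, log2 fold change -0.46, edgeR adjusted p = 0.083, DESeq2 adjusted p = 0.0038). Gypc was at -0.35, Xk at -0.34 and Sptb, the beta chain of erythroid spectrin, at -0.51, with edgeR adjusted p of 0.15 to 0.25. Some genes of this list are also expressed in other cells of the heart. Tmod1, its most abundant gene, measured 208 ± 14.3 CPM in control hearts, against 21.0 ± 9.96 CPM for Slc4a1. The part of other cells in the levels of this list was not tested. Of 13 tested other red cell genes, 1 was lower and 0 higher at that level, Mgst3 (-0.41), with a median of -0.080.

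**Figure D5:**
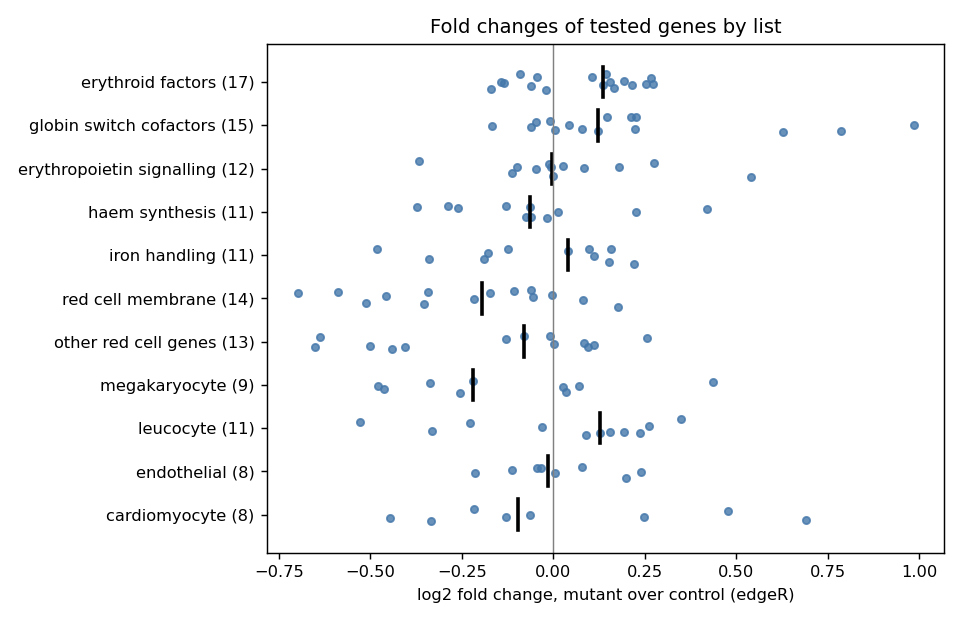
The log2 fold change of each tested gene (blue points, horizontal axis) in 11 lists, without the globin, liver, neuron and cartilage lists, with the number of tested genes in brackets and the list's median as a black bar; vertical scatter within a list has no meaning. Medians of these 11 lists run from -0.22 for the megakaryocyte markers to 0.13 for the erythroid factors, and most points lie within 0.5 of 0.

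Markers of other cell types that carry some of the same genes were measured in the same hearts. Megakaryocytes use Gata1, Tal1 and Nfe2, and their 10 markers summed to 15.9 to 20.9 CPM in control and 13.1 to 23.4 CPM in mutant hearts, with 0 of 9 tested genes past a raw edgeR p of 0.05 and none called by DESeq2. Mutant replicate 3 was the highest for the megakaryocyte sum and, on 17 counts, for Gata1. The other genes of the 9 that megakaryocytes use did not share this: Nfe2 was highest in control replicate 3 and Tal1 in mutant replicate 2. Endothelial markers, the other place of Tal1, summed to 805 to 1020.3 CPM and 899 to 963 CPM, with 0 of 8 past that level. Leucocyte markers summed to 116 to 149 CPM and 129 to 146 CPM, with 1 of 11 higher and 2 lower. Over all genes 9.48% were higher and 9.98% lower at that level. Fetal liver, the site of definitive red cell formation was barely represented: its 10 markers summed to 2.34 to 4.29 CPM and Fgb and Fgg were at 0 in all hearts. The few counts were not spread evenly. Alb, serum albumin, had 0, 12 and 12 counts in control replicates 1, 2 and 3 and 0, 1 and 0 in the mutant hearts, and Afp, alpha-fetoprotein, 2, 24 and 12 against 3, 7 and 0. Control replicates 2 and 3 were thus the highest for both, but these genes were named after their values were seen. Of the 4 liver markers high enough to test, 2 had a log2 fold change above 0 and 2 below. Apob, an apolipoprotein also made outside the liver, went the other way, with 0, 4 and 0 counts against 68, 14 and 34 (log2 fold change 4.07, edgeR adjusted p = 0.10, DESeq2 adjusted p = 0.0030). The part of liver RNA in the level of Alas2 was not tested.

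Markers of the labelled tissue were abundant, with cardiomyocyte genes summing to 11987 to 15914 CPM. Of 8 cardiomyocyte markers 2 were higher and 0 lower by raw p, against 9.48% and 9.98% of all genes. The 2 were Myl7 (0.69) and Myh6 (0.48). Genes listed as cartilage markers, among which Sox6 has its partners Sox5 and Sox9, summed to 24.3 to 53.7 CPM in control and 81.1 to 87.8 CPM in mutant hearts, without overlap. Of the 5 tested, 4 were higher and 1 lower at that level. The 4 had all mutant hearts above all controls and the 1 all below, as had 14.3% and 12.8% of all genes. Col2a1 had the widest gap (23.3, 4.29 and 4.10 CPM in control against 49.8, 48.5 and 46.4 CPM in mutant hearts). Sox5 measured 3.24 to 4.49 CPM and 5.60 to 6.67 CPM. Which cells of these hearts carried the cartilage markers was not tested, nor was the part of such cells in the level of Sox6. The part of cells other than red cells in the levels of Tal1, Gata1, Nfe2 and Epor was not tested either.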

How the data were processed

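RNA of 6 whole hearts was sequenced from mRNA libraries made with the NEBNext Ultra RNA kit. The authors aligned paired reads to GRCm38 (mm10) with STAR 2.4.2a and GENCODE vM6 and counted them per gene with summarizeOverlaps; the deposited values are raw counts, with no normalization. The deposited comparison table also holds the authors' symbols (unit: other), used here to name rows, and the authors' DESeq2 fold changes and p-values, which were not used. Coordinates and exon lengths are from GENCODE vM21 on GRCm38, and promoters from RefSeq. The 9 genes and all lists were chosen with earlier results of these data known.

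Counts were tested with edgeR 4.0.16 in R 4.3.3 (quasi-likelihood, TMM, minimum count 10, minimum total 15, group alone), with Benjamini-Hochberg adjustment over 17125 genes. SE is the log2 fold change over the root of its F. DESeq2 1.42.0, other scalings, filters and covariates, and leaving out each heart were alternatives. Ratios to a set of other red cell genes, and some listed genes, are not reported here, and ratios to adult globin counts are given instead. Ratios within hearts were tested by exact two-sided permutation in Python 3.11.15. The fit was tested on simulated counts. Named genes were drawn from the 9, the globins, in each list the up to 4 of smallest p and the highest expressed, and those most like Alas2, Bcl11a and Sox6; others were named after their values were seen (Apex2, for its overlap, Lmo2, Gfi1b, Jak2, Stat5a, Zbtb7a, Chd4, Fgb, Fgg, Alb, Afp and Apob, for their roles). Hearts of 1 group differed well beyond counting noise (lowest chi-square per degree of freedom 19.0), so none was counted as a duplicate. Each library is 1 heart, and litters are not given.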

Additional observations from a re-analysis of the deposited data

How the results depend on the processing

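Of the 9 genes, 0 were called by edgeR, and 1, Alas2, when all genes with at least 1 count were tested and when control replicate 1 was left out. Leaving out each heart gave 0 to 1. Over all genes the 0 calls became 603 with all genes with at least 1 count, 1013 with DESeq2, and 0 to 751 on leaving out a heart (751 without control replicate 1, 3 without control replicate 2). Replicate numbers did not pair the hearts (r of same-numbered deviations 0.025, -0.084 and -0.073). A fit with the replicate number as a block gave 14 calls over all genes and none of the 9. The globin ratio difference of 4.13 is by arithmetic the same over same-numbered pairs, so pairing could not move it. Its exact p over the pairs was 0.25, the lowest possible with 3 pairs. The globin ratio difference ranged from 3.31 to 5.44 over hearts left out. On leaving out a heart the log2 fold change of Gata1 ranged from -0.86 to 0.068, of Bcl11a from -0.023 to 0.12 and of Sox6 from -0.073 to 0.10, changing sign. Relative to adult globin, the difference of Alas2 ranged from -0.025 to 0.12 on leaving out a heart and was -0.15 against all globin counts, a reference chosen after seeing the data; those of the other 8 genes kept their direction. The cause was not tested. Depth limits Klf1 and Gata1, with 5 to 25 counts per heart.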

Other observations

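Within the globins, the balance of the loci also differed between the groups. Adult alpha globin counts (Hba-a1 and Hba-a2) were 0.958, 0.824 and 0.894 times the adult beta globin counts (Hbb-bs and Hbb-bt) in control replicates 1, 2 and 3, and 1.17, 1.32 and 1.27 times in the mutant hearts, without overlap. Hbb-bh1 amounted to 6.72, 24.8 and 10.7 counts per 1000 Hbb-y counts in the control hearts and 17.5, 13.1 and 14.7 in the mutant hearts, with overlap. Globin genes together took 0.942%, 1.64% and 3.77% of all counts in the control hearts and 0.661%, 0.768% and 1.15% in the mutant hearts. These values were read after the rest and were not tested.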
